A study of Mus musculus with 5 samples.

Results

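Solute carriers are membrane proteins that move metals, amino acids, sugars, ions and other small molecules, and their mouse genes carry symbols that begin with Slc. The genes described here are the protein-coding genes of the deposited table whose symbol is Slc followed by a digit. Slc7a11 and Slc2a1 were left out of the 36 such genes, which leaves 34 of the 1489 genes listed, or of the 1323 that code for protein. They belong to 25 Slc families and were grouped by the substrate each is known for, as 9 genes for amino acids, 7 for metals, 5 for ions, 4 for organic anions, 3 for sugars, 2 for nucleosides and nucleotides and 4 for other substrates. The rule uses only symbol and biotype, but it was set with earlier results of these data known and reaches only genes listed in the table.

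RNA came from RAW264.7 cells, a mouse macrophage line, and 5 libraries were sequenced to ask which signaling genes answer to an anti-inflammatory compound. The 2 control libraries were from cells given PBS, the 2 libraries of the LPS model from cells given lipopolysaccharide (LPS), an outer membrane lipid of Gram-negative bacteria that macrophages sense, and 1 library from cells given LPS together with a compound. The treatment label of that library reads anti-inflammatory compounds, in the plural, and names none. Its title carries a code that the study does not link to a compound. Its identity as compound 13, a chlorinated hydroxymellein from the mangrove fungus Amorosia, is taken from the methods of the study and is not settled by the labels. In those methods LPS was used at 0.1 μg/ml and compound 13 at 10 μM, and RNA was collected after 24 h, although the doses are not restated for the sequenced cells. All 3 groups are the same line, which comes from BALB/c mice, a strain known to carry an impaired allele of Slc11a1, so the levels below are of its RNA and not of working protein. Nothing in the sources states that replicates were separate cultures, and the spread behind each p-value may therefore be a technical one.

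Solute carriers work as uniporters, as symporters that draw on a sodium or proton gradient, or as exchangers, and they sit in the plasma membrane, in endosomes and lysosomes or in mitochondria. In macrophages they are known for withholding iron and manganese from microbes in the phagosome, for recycling iron from red cells, for bringing in arginine for nitric oxide synthesis and for releasing lactate during glycolysis.

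The deposited values were read as FPKM (fragments per kilobase of exon, corrected for depth) on a log2 scale, so levels of different genes can be set beside each other. Low values stepped in whole reads, which gave depths of 16160000 to 17110000 reads per library and the reads behind each value. The listed genes held 8.0% and 8.21% of all reads in control cells, 17.0% and 17.15% after LPS and 16.83% after LPS plus compound 13. Whether the listed genes are those that met the study's own threshold for differential expression is not stated. LPS separated nearly every one of them from the control, and the numbers going up and down therefore describe the table as much as the cells. The p-values of single genes for LPS against control, fitted and adjusted within this table, carry the same limit. Of 13 macrophage markers, the 5 that are listed (Itgam, Cd14, Fcgr3, Fcgr1 and Cd36) held 26333 and 28627 reads in control cells, 55803 and 54005 after LPS and 56570 after LPS plus compound 13. Most of these reads were of Cd14. Fcgr1 went the other way from the rest, with 617 and 732 reads in control cells, 579 and 592 after LPS and 444 after LPS plus compound 13. Of 9 epithelial markers, the 3 listed keratins (Krt8, Krt18 and Krt19) had 593 and 364 reads after LPS alone and 0 in each other library. The 7 listed of 10 fibroblast and endothelial markers had 440 and 328 reads after LPS alone, 7 and 4 in control cells and 26 after LPS plus compound 13. Across the table, 77 genes reached 10 reads in both libraries given LPS alone with no more than 3 in any of the rest, and 0 of the 34 solute carrier genes were among them. The part of these transcripts in the results was not tested.

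LPS was followed by higher levels of most listed solute carrier genes, and on the log2(FPKM + 1) scale the difference was largest for Slc15a3, Slc6a4, Slc11a1 and Slc31a2 among those tested, whereas by reads the largest ratio was that of Slc39a4, at 32.6. The log2(FPKM + 1) scale, on which values were compared, understates changes of low genes, and the 21 members with an FPKM of at least 1 in any 2 libraries, or in that with compound 13, entered a limma fit over 1053 genes. Of these 21, 16 rose and 4 fell with LPS at an adjusted p under 0.05 from limma, against 7 higher and 8 lower under median-of-ratios scaling. Across all 1053 tested genes 96.1% were called either way, 72.7% as higher and 23.4% as lower, so the share of solute carriers called was near the background. Their median difference was 0.91 on the log2 scale beside 0.96 over all tested genes. That scaling presumes equal numbers of rising and falling genes in the table and moves the median of all genes from 0.96 to 0.00, whereas the share of reads held by the listed genes went up with LPS as given above. Of the 21, 5 (Slc39a4, Slc6a4, Slc45a3, Slc1a4 and Slc6a9) passed the filter on libraries given LPS and would not have on the control libraries, and 2 (Slc7a4 and Slc16a7) passed on the control libraries alone, beside 253 and 71 of all tested genes. A difference was built into the passing of these 7, so the counts of 16 and 4 are descriptions, and their p-values below are from limma-voom, a version of limma for counts which was run on genes with at least 10 reads summed over all libraries. In bulk RNA a lower level in each cell and a smaller number of cells with the transcript cannot be told apart.

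**Figure D1:**
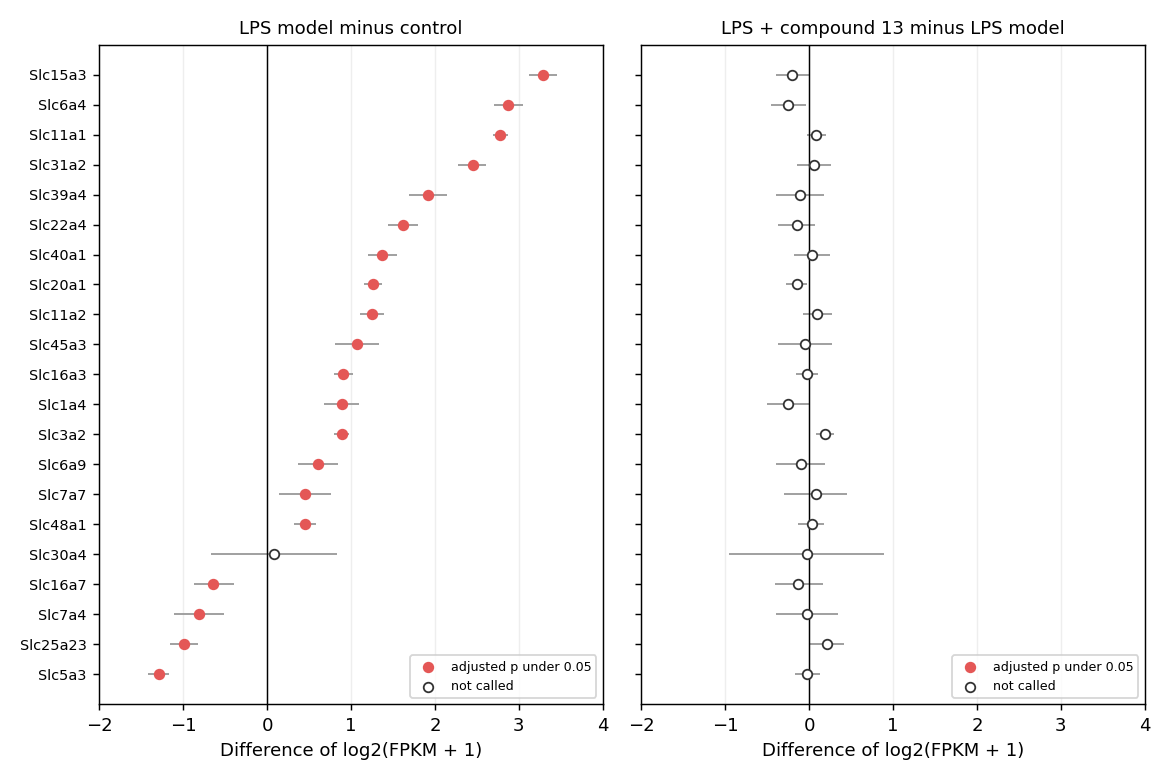
Difference of log2(FPKM + 1) for the 21 tested solute carrier genes, LPS model minus control on the left and LPS with compound 13 minus LPS model on the right, with 95% limma intervals as lines. Filled points mark an adjusted p under 0.05. On the left 16 genes are called above 0 and 4 below as deposited (7 and 8 under median-of-ratios scaling), and on the right every point lies between −0.25 and 0.21 and none is called.

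Promoter sequence was available in the RefSeq tables (GRCm38.p6, the build of the files) for 24 of the 34 genes, in 36 windows, each searched over the 250 bases before the start. The stretches of 4 genes are shown, with 3 of the genes higher and 1 lower in the LPS model. Each has the largest log2(FPKM + 1) difference among the tested members of its substrate group. Slc20a1 is the only tested ion carrier, and Slc6a4 had just 21 and 23 control reads. Slc25a23 and Slc16a3, with the largest differences of the nucleoside and organic anion groups, also have windows but are not shown. Each stretch runs 5′ to 3′ and ends before the first exon of its gene. Slc11a1 is at chr1:74374953-74375194, Slc20a1 at chr2:129198523-129198763, Slc6a4 at chr11:76998347-76998596 and Slc5a3 at chr16:92058072-92058321, all on the plus strand, and capitals mark matches to the motifs searched.
Slc11a1: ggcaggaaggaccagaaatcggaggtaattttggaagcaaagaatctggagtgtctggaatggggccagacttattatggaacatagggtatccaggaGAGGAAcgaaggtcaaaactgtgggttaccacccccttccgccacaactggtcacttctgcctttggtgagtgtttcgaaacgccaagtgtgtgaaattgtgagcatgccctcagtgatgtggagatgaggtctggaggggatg
Slc20a1: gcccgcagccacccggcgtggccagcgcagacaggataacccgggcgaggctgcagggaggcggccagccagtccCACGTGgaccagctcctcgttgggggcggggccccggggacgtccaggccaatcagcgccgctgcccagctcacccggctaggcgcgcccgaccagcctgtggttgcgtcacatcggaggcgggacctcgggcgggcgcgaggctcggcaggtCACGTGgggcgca
Slc6a4: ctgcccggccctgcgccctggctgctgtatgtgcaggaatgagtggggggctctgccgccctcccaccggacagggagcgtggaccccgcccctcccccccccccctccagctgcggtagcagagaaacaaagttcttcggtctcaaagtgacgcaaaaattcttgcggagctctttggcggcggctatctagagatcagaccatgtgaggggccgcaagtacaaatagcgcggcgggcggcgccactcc
Slc5a3: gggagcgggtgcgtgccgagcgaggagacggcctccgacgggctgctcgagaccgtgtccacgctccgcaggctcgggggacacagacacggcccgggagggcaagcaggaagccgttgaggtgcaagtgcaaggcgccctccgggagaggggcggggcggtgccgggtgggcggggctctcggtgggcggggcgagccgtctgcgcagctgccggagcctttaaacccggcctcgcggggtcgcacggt
The Slc11a1 stretch held 1 match to the PU.1 core GAGGAA, and the Slc20a1 stretch 2 matches to the E-box CACGTG, while those of Slc6a4 and Slc5a3 had no match to any motif searched. Over both strands, the PU.1 core was found in 27.8% of the windows of the solute carrier genes and 23.3% of all 32851 windows, and the E-box in 11.1% and 6.02%. The shares were 8.33% and 7.25% for the NF-kappaB motif, 5.56% and 6.75% for AP-1 (TGANTCA), 5.56% and 9.56% for C/EBP (TTGCNNAA) and 0% and 2.98% for the interferon-stimulated response element. Windows of the same gene can overlap, so a site may be counted more than once. The NF-kappaB matches lay in 3 windows of 2 genes, Slc4a8 and Slc7a7. A match is a description of the letters and not a bound site, and a window without one says only that these letters are not in it. GC content of the shown stretches ran from 50.4% in Slc11a1 to 75.5% in Slc20a1.

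Of the metal transporters 6 of 7 rose with LPS and 0 fell, in a table where 96.1% of tested genes were called. The 6 include Slc39a4, whose passing of the filter had a difference built in. The median difference of the 7 was 1.37 beside 0.96 over all tested genes. Under median-of-ratios scaling Slc48a1 turned lower, Slc30a4 was at −0.40 and Slc11a2 was no longer called. Slc11a1 (chr1:74375195-74386062), the natural resistance protein that pumps iron and manganese out of the phagosome, stood at 27.2 and 26.5 FPKM in control cells, 189 and 191 after LPS and 201 after LPS plus compound 13. All 3 libraries given LPS lay far above the control libraries, and Slc11a1 had the highest FPKM of the solute carrier genes in each of them. Its reads were 7.08 times those of the control (95% counting interval 6.83 to 7.35), and its log2 difference was 2.78 ± 0.04 (SE) with an adjusted p of 7.42e-07 from limma. Slc31a2 (chr4:62262562-62298411), a copper transporter of endosomes and lysosomes, had 12.6 and 12.0 FPKM in control cells, 67.6 and 75.1 after LPS and 74.3 after LPS plus compound 13. The groups did not overlap, and the log2 difference for Slc31a2 was 2.45 ± 0.06 (limma adjusted p = 2.94e-06).

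Slc39a4, a zinc importer, went from near silence to 3.28 and 2.97 FPKM with LPS, from 0.136 and 0.0527 in the control, and stood at 2.83 with compound 13. About 7 and 3 reads in control cells and 169 and 149 after LPS lie behind these values, a ratio of 32.6 (counting interval 17.5 to 68.7), and since its coordinates differ from those of the annotation its reads are approximate. The difference for Slc39a4 was 1.92 on the log2(FPKM + 1) scale (limma-voom adjusted p = 6.62e-05). Slc40a1, or ferroportin, the iron exporter of the plasma membrane, had 1.27 and 1.29 FPKM in control cells and 4.97 and 4.86 after LPS. Slc11a2, which brings ferrous iron across the plasma and endosomal membranes, had 7.64 and 8.13 FPKM in control cells and 20.0 and 20.3 after LPS. Both were higher in each library given LPS, with log2 differences of 1.37 ± 0.07 for Slc40a1 and 1.25 ± 0.05 for Slc11a2 (limma adjusted p = 1.76e-05 and 1.15e-05), and under median-of-ratios scaling Slc11a2 was at 0.13. With compound 13 Slc40a1 was at 5.07 FPKM and Slc11a2 at 21.7.

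The iron importer, the iron exporter and the phagosomal metal pump all had higher RNA levels after LPS as deposited, of which Slc11a2 was no longer called under median-of-ratios scaling. Slc48a1, which carries heme out of the lysosome, changed least among the called metal genes, from 37.5 and 40.3 FPKM in the control to 53.7 and 53.3 in the LPS model. Its log2 difference of 0.45 turned to −0.74 after rescaling, and Slc48a1 overlaps Hdac7 on the other strand. Slc30a4, a zinc transporter into vesicles, is the 1 tested member that was not called. It had 0.264 and 1.08 FPKM in control cells, 0.429 and 1.05 after LPS and 0.670 after LPS plus compound 13. The first replicate of Slc30a4 was the lower in both groups, the groups overlapped, and the interval of the log2 difference ran from −0.67 to 0.83 (limma adjusted p = 0.804).

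**Figure D2:**
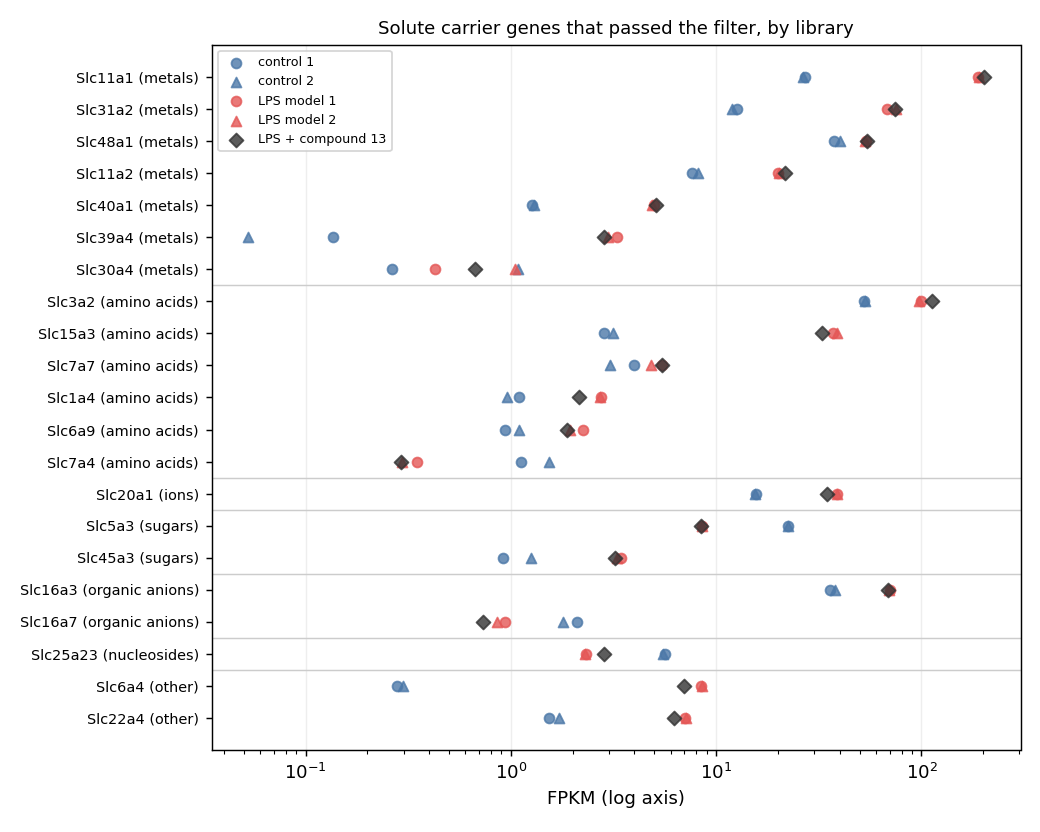
FPKM on a log axis of the 21 tested solute carrier genes in each of the 5 libraries, grouped by substrate. Control libraries lie left of the LPS libraries for Slc11a1 (26.5 and 27.2 against 189 and 191) and right of them for Slc5a3 (22.3 and 22.4 against 8.51 and 8.53), Slc30a4 overlaps, and the diamonds of compound 13 lie close to the LPS libraries.

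Of the amino acid transporters, 6 were tested, and LPS left 5 of them higher and 1 lower, with 3 of these calls on members whose passing had a difference built in. The median difference was 0.75 beside 0.96 over all tested genes, and under median-of-ratios scaling Slc3a2, Slc7a7 and Slc6a9 turned negative and Slc1a4 was no longer called. Slc15a3 (chr19:10839727-10859362), which carries histidine and small peptides out of the lysosome, had 2.84 and 3.16 FPKM in control cells, 37.2 and 38.8 after LPS and 32.9 after LPS plus compound 13. Its reads were 12.7 times those of the control (counting interval 11.6 to 13.8), and the log2 difference of 3.29 ± 0.06 was the largest on this scale among the tested solute carrier genes (limma adjusted p = 1.75e-06). Slc15a3 overlaps Tmem132a on the other strand, and whether counting used the strand is not given in the sources used here. Slc3a2, the CD98 heavy chain that brings light chains of the Slc7 family to the cell surface, had 52.3 and 53.3 FPKM in control cells, 99.6 and 97.6 after LPS and 113 after LPS plus compound 13. The library with compound 13 was the highest of the 5 for Slc3a2, and the difference between LPS model and control was 0.89 ± 0.04 on the log2 scale (limma adjusted p = 9.56e-06), or −0.31 after rescaling.

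Slc7a7, a light chain that pairs with Slc3a2 and exchanges cationic for neutral amino acids, moved little, from 3.96 and 3.05 FPKM to 5.44 and 4.83. Its log2 difference of 0.45 passed at an adjusted p of 0.0143 from limma, but at 0.138 without LPS model replicate 1 and at 0.0726 without LPS model replicate 2. Slc1a4, a carrier of alanine, serine and cysteine, went from 1.09 and 0.953 FPKM to 2.76 and 2.71, a log2 difference of 0.89 that was 0.13 after rescaling. By limma-voom the difference for Slc1a4 was 1.42 ± 0.14 (adjusted p = 0.000249). Slc6a9, the glycine transporter, went from 0.939 and 1.09 FPKM to 2.24 and 1.94, a difference of 0.61 that was −0.11 after rescaling. By limma-voom the difference for Slc6a9 was 1.03 ± 0.16 (adjusted p = 0.00129). Slc7a4, an Slc7 protein with no settled substrate, was the member of this group that was lower, going from 1.12 and 1.54 FPKM to 0.349 and 0.295 (log2 difference −0.81, or −2.01 ± 0.29 by limma-voom, adjusted p = 0.0011). The LPS libraries of Slc7a4 lay below both control libraries, at 4.12-fold fewer reads, and the gene overlaps P2rx6 on the other strand. As for Slc39a4, its coordinates differ from those of the annotation, so its reads are approximate.

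The phosphate importer Slc20a1 (chr2:129198764-129211616), which takes up phosphate with sodium, was the ion carrier that passed the filter, with 15.7 and 15.5 FPKM in control cells, 38.6 and 38.9 after LPS and 34.8 after LPS plus compound 13. The control and LPS libraries of Slc20a1 stood apart, with a log2 difference of 1.26 ± 0.04 (limma adjusted p = 5.29e-06) that was 0.10 and not called under median-of-ratios scaling. The other 4 ion carriers were under the filter and are given as reads.

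Sugar transporters moved in both directions. Slc5a3 (chr16:92058322-92087473), which imports myo-inositol with sodium, had 22.4 and 22.3 FPKM in control cells, 8.51 and 8.53 after LPS and 8.41 after LPS plus compound 13. Every library given LPS was below both control libraries, at 2.62-fold fewer reads in the LPS model, and its log2 difference of −1.29 ± 0.05 was the most negative of the tested solute carrier genes on the log2(FPKM + 1) scale (limma adjusted p = 7.79e-06), although by reads Slc7a4 was lower by more, at 4.12-fold. Slc5a3 shares its strand and part of its span with Mrps6, which was not analysed here. Slc45a3, a proton-coupled sugar carrier, went the other way, from 0.915 and 1.25 FPKM to 3.42 and 3.30. Its log2 difference of 1.07 was 0.29 and not called after rescaling, and by limma-voom it was 1.64 ± 0.18 (adjusted p = 0.00032).

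The monocarboxylate carriers of the Slc16 family also moved apart. Slc16a3, or MCT4, which exports lactate, had 35.8 and 37.7 FPKM in control cells, 70.4 and 69.6 after LPS and 68.7 after LPS plus compound 13. Slc16a7, or MCT2, a high-affinity carrier of pyruvate and lactate, had 2.1 and 1.8 FPKM in control cells, 0.932 and 0.857 after LPS and 0.734 after LPS plus compound 13. The groups did not overlap for either gene, and the log2 difference for Slc16a3 was 0.91 ± 0.04 (limma adjusted p = 1.54e-05), or −0.28 under median-of-ratios scaling. For Slc16a7 it was −0.64, or −1.12 ± 0.13 by limma-voom (adjusted p = 0.000404).

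Slc25a23, a mitochondrial carrier that exchanges ATP-magnesium for phosphate, was lower with LPS, at 5.66 and 5.50 FPKM in control cells, 2.32 and 2.29 after LPS and 2.83 after LPS plus compound 13. The library with compound 13 lay between the groups, and the log2 difference between LPS model and control was −0.99 ± 0.07 (limma adjusted p = 5.25e-05).

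Among carriers of other substrates, Slc6a4 (chr11:76998603-77032340), the serotonin transporter, went from 0.280 and 0.297 FPKM in control cells to 8.41 and 8.49 after LPS, and stood at 6.95 after LPS plus compound 13. Its 21 and 23 control reads became 633 and 622, a ratio of 29.3 (counting interval 21.7 to 40.5), and the difference of 2.87 on the log2(FPKM + 1) scale understates this ratio, which limma-voom put at 4.84 ± 0.18 on the log2 scale (adjusted p = 7.02e-06). Slc22a4, or OCTN1, which imports ergothioneine, had 1.54 and 1.72 FPKM in control cells, 7.01 and 7.12 after LPS and 6.26 after LPS plus compound 13, a log2 difference of 1.62 ± 0.07 between LPS model and control (limma adjusted p = 1.22e-05). Slc22a21, a carnitine carrier described in mouse, lies 2790 bases from Slc22a4 on the same strand of chromosome 11 with 0 protein-coding genes between them. It stood at 39 and 46 reads in control cells, 10 and 16 after LPS and 24 after LPS plus compound 13. These neighbours therefore moved in opposite directions with LPS by reads, since Slc22a21 was lower by 1.67 ± 0.31 on the log2 scale of limma-voom, at an adjusted p of 0.00309.

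The 13 members under the filter were read as recovered counts, on which limma-voom called 26 of all 34 members higher and 7 lower in the LPS model, beside 96.2% of 1487 genes called either way. Some reached the 10 reads needed only through the side where they are high. Slc7a2, Slc16a9 and Slc2a5 did so with 0 control reads, and Slc13a3 through its control reads. Slc17a8 (1 and 5 control reads), Slc9a2 (9 and 0) and Slc28a2 (2 and 2) also needed their reads from libraries given LPS. A difference was built into the passing of all of these genes, so the counts called by limma-voom too are descriptions. Slc7a2, the arginine importer that feeds the nitric oxide synthase of macrophages, had 0 and 0 reads in control cells, 23 and 31 after LPS and 18 after LPS plus compound 13. Against a floor of 3 reads over the control group this is 18.5-fold higher, with an exact interval that starts lower, at 14.5. Counting intervals and floors cover counting error only. Slc16a9 likewise had 0 reads in both control libraries, 9 and 17 after LPS and 15 after LPS plus compound 13. By the same floor it was 8.89-fold higher in the LPS model, with an exact interval that starts at 6.73. Slc2a5, the fructose transporter, had 0 and 0 reads in control cells, 7 and 9 after LPS and 0 after LPS plus compound 13. By the floor it was 5.47-fold higher in the LPS model, with an exact interval that starts at 3.96.

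Reads of the other low genes were mostly higher with LPS. The vesicular glutamate transporters Slc17a6 and Slc17a8 had 4 and 10 and 1 and 5 reads in the control, and 55 and 58 and 21 and 23 in the LPS model. Slc4a8, a sodium-driven chloride bicarbonate exchanger, had 23 reads in each control library, 136 and 117 after LPS and 157 after LPS plus compound 13, and Slc12a5, a potassium chloride cotransporter, had 36 and 27, 93 and 86, and 82. Slc35f1, an orphan carrier, had 4 and 6 reads in control cells, 39 and 32 after LPS and 38 after LPS plus compound 13. All 5 were called higher by limma-voom, as were Slc9a2 (9 and 0 reads against 51 and 43), a sodium proton exchanger, and the purine nucleoside importer Slc28a2 (2 and 2 against 15 and 19). With compound 13 Slc9a2 had 25 reads, a ratio of 0.509 to the LPS model (counting interval 0.314 to 0.799) from a single library. Slc28a2 lies beside Gm14085, and reads of similar neighbours may have been split between them. Slc9a9, a sodium proton exchanger of endosomes, and Slc13a3, a dicarboxylate importer, fell, with 37 and 40 against 7 and 7 reads and 11 and 21 against 0 and 3 reads (limma-voom adjusted p = 0.000323 and 0.0113). For Slc13a3 this is a ratio of 0.0962, with a counting interval from 0.0188 to 0.307.

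**Figure D3:**
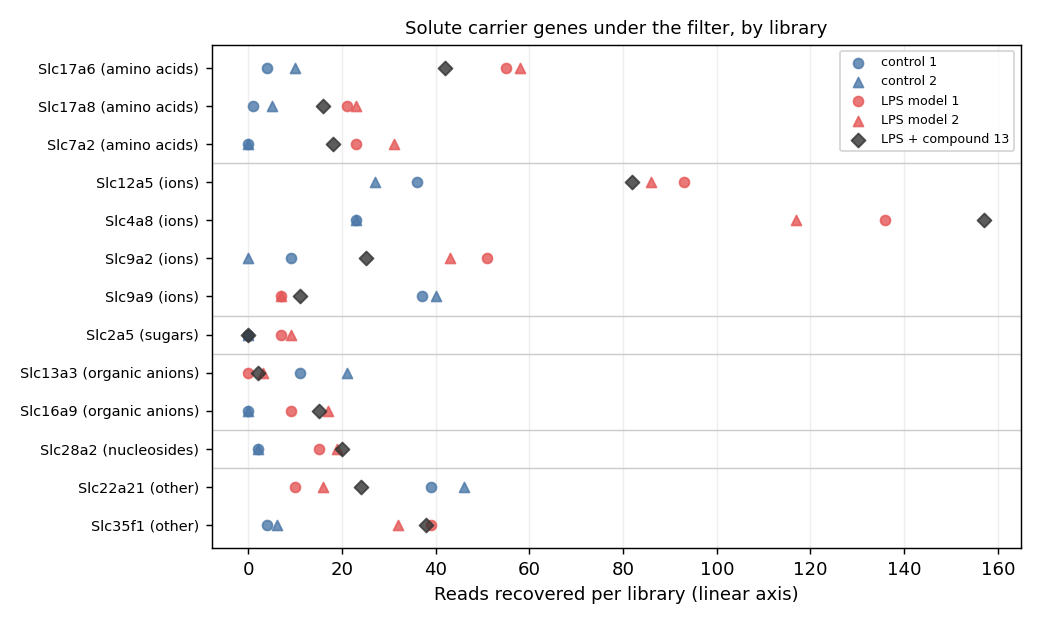
Reads recovered per library, on a linear axis, for the 13 solute carrier genes under the filter, grouped by substrate. Slc9a9 (37 and 40 against 7 and 7), Slc22a21 and Slc13a3 have the control libraries on the right, the other 10 have them on the left, and Slc2a5 has 0 reads with compound 13 where the LPS model has 7 and 9.

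Counted without a test, the LPS libraries lay above both control libraries for 26 of the 34 genes and below both for 7, with 1 overlap, beside 97.8% of all 1489 genes without overlap. Together the 34 genes took 1114 and 1135 RPM (reads scaled to library depth) in control cells, 2571 and 2589 after LPS and 2619 after LPS plus compound 13. Of these reads the metal transporters held 26.2% and 26.7% in control cells, 45.6% and 46.1% after LPS and 47.5% after LPS plus compound 13. Slc11a1 alone went from 9.05% and 8.64% of the solute carrier reads to 27.3% in both LPS libraries and 28.5% with compound 13. The sugar carriers, most of them Slc5a3 reads, went from 22.2% and 21.8% to 4.10% and 4.07%. These shares depend on gene length and compare the same group across libraries.

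**Figure D4:**
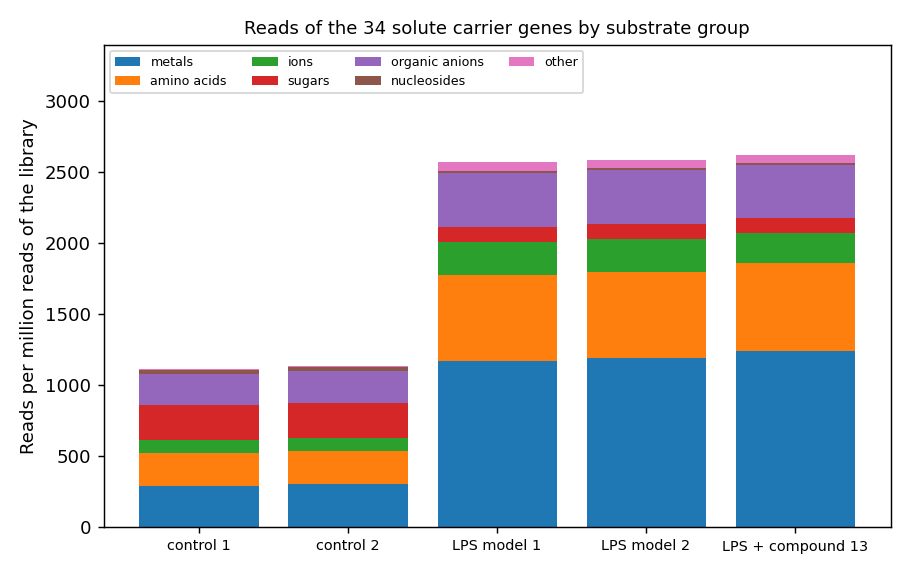
RPM, reads scaled to library depth, held by the 34 solute carrier genes, stacked by substrate group, in each library. The sum is 1114 and 1135 in control cells, 2571 and 2589 after LPS and 2619 after LPS plus compound 13, and the lowest block, the metal transporters, takes 291.5 and 302.9 in the control against 1171 and 1194 in the LPS model.

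No tested solute carrier gene passed the threshold between compound 13 and the LPS model. Of the 21 tested, 0 were called against the LPS model by limma, with 6 at an unadjusted p under 0.05 where 264 of all 1053 tested genes were so. This stands beside 7.6% of all 1053 tested genes called, 0.38% as higher and 7.22% as lower. Limma-voom on recovered reads called 2 of the 34, Slc3a2 and Slc2a5, beside 20.2% of 1487 genes. Differences of the tested members ran from −0.25 to 0.21 on the log2 scale, with a median of −0.03 beside −0.08 over all tested genes (0.05 under median-of-ratios scaling). This group is a single library that is assumed to vary like the others, so a missed threshold does not show that levels were the same.

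The 6 members at an unadjusted p under 0.05, a share near that of all tested genes, are described without a claim that they changed. Slc3a2 was at 113 FPKM with compound 13 against 99.6 and 97.6, a log2 difference of 0.19 (interval 0.08 to 0.30, limma adjusted p = 0.0724), and was called at 0.0213 by limma-voom. It was the member that limma called when either control library was left out (adjusted p = 0.0341 and 0.0337) or only the groups compared were fitted (0.0331). Slc25a23 differed by 0.21 (interval 0.00 to 0.42), toward the control level. Slc6a4 at −0.25 (interval −0.46 to −0.04), Slc1a4 at −0.25 (interval −0.50 to 0.00), Slc15a3 at −0.20 (interval −0.40 to 0.00) and Slc20a1 at −0.15 (interval −0.28 to −0.02) were also nearer the control than the LPS libraries were. Limma adjusted p for these 5 ran from 0.147 to 0.199, and under median-of-ratios scaling Slc6a4 was at −0.09, Slc1a4 at −0.12, Slc15a3 at −0.04 and Slc20a1 at 0.01, while Slc25a23 was at 0.30 and Slc3a2 at 0.36. For the metal transporters the differences ran from −0.11 to 0.10, and the interval for Slc11a1 was −0.03 to 0.20.

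Slc2a5 had 7 and 9 reads after LPS and 0 after LPS plus compound 13, 2.78-fold lower by the floor of 3 reads. The exact interval of the ratio to the LPS model ran from 0 to 0.497. Slc2a5 entered limma-voom only through its LPS model reads, 16 in all, so a difference was built into its call as lower. It goes the way of the keratin and fibroblast transcripts described above, present in the LPS model libraries and at or near 0 elsewhere, and their part in it was not tested. The library with compound 13 lay within the range of the LPS libraries for 6 of the 34 genes, above it for 10 and below it for 18. With 2 libraries setting the range, 83% of all 1489 listed genes were outside it, 16.9% above and 66.1% below, against 29.4% and 52.9% of the solute carrier genes.

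Against the control, the library with compound 13 had 16 solute carrier genes higher and 4 lower by limma, beside 92% of all tested genes called (68.1% as higher and 23.9% as lower), and 8 higher and 5 lower under median-of-ratios scaling. The median difference was 1.02 beside 0.82 over all genes, and this comparison shares its libraries, and the 7 members with a difference built into their passing, with the one above. Slc15a3 was at 3.08, Slc11a1 at 2.86, Slc6a4 at 2.63 and Slc5a3 at −1.31 on the log2 scale.

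The annotation in the deposited table places the proteins. Of the 34 genes, 64.7% carried a plasma membrane term beside 32.4% of the 1329 annotated genes, 26.5% an endosome term beside 5.34% and 14.7% a lysosome term beside 3.54%. The 5 lysosomal members were Slc11a1, Slc11a2, Slc15a3, Slc30a4 and Slc48a1, of which 4 were called higher with LPS as deposited, where 72.7% of all tested genes were, with Slc48a1 turning lower and Slc11a2 no longer called after rescaling. On the other strand Slc6a9 overlaps B4galt2, Slc7a7 overlaps Oxa1l, Slc20a1 overlaps 9830144P21Rik and Slc25a23 overlaps Crb3, so that reads of these genes too may be shared. Other pairs on the same chromosome were much farther apart than Slc22a4 and Slc22a21, such as Slc28a2 and Slc30a4 at 220095 bases and Slc11a2 and Slc4a8 at 336674 bases.

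Genes that work beside these carriers were taken from 6 lists. Of the 274 genes on the lists, 36 are in the table and 27 were tested, of which 23 rose and 2 fell with LPS, or 13 and 13 under median-of-ratios scaling. Their share called is near the 96.1% of all tested genes and their median difference was 1.00 beside 0.96. Of the 27, 7, Lcn2, Nos2, Upp1 and Cda among them, passed the filter on libraries given LPS, with or without compound 13, and would not have on the control libraries. None of 65 solute carriers without an Slc symbol was listed in the table. In metal handling 3 of 5 tested were higher and 1 lower, led by Lcn2, which binds bacterial siderophores, and Hmox1, which breaks down heme, with log2 differences of 2.55 and 2.12. Lcn2 had 0 control reads and 204 and 215 in the LPS model, and Hfe, a regulator of iron sensing, was lower, at −1.16. The 10 tested genes of amino acid metabolism were higher in the values as deposited, in a table where 72.7% were, led by Nos2, the inducible nitric oxide synthase, at 4.60 and Odc1, of polyamine synthesis, at 2.57.

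In nucleoside metabolism 5 of 7 were higher and 1 lower, with Upp1, uridine phosphorylase, at 4.20, Cda, cytidine deaminase, at 2.24 and Gda, guanine deaminase, the 1 that was lower. The 3 tested ABC transporters (Abcc1 at 0.85 and Tap1 at 0.75 among them) and the 2 ion pump subunits (Atp1b3 at 1.02 and Atp6v0a1 at 0.95) were higher. With compound 13, 1 of the 27, the peptide transporter subunit Tap1, was lower than in the LPS model, at −0.40 (limma adjusted p = 0.0466), a call lost without either LPS model replicate and in several other settings. The number of list genes called was 6 (3 higher and 3 lower) with the groups compared only or without either control replicate, and 10 (3 higher and 7 lower) by limma-voom.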

How the data were processed

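RNA of RAW264.7 cells was measured in 5 libraries (2 control, 2 LPS model, 1 LPS with compound 13), grouped by the treatment labels. The authors deposited log2 values per library for 1489 genes on mm10, made with a strand-specific kit. The methods set 0.01 as the threshold for differential expression, without saying that this drew up the table. The sources do not name the unit, which was read as log2 FPKM because low values fall on whole reads by exon length. The submitters' processing notes list DESeq2, SAMtools 1.4, HISAT2 2.1.0 and Trimmomatic 0.32 without their roles. For the read counter and its strand setting, nothing is given in the sources used here. The table holds 562 values that are exactly 0, read as no read counted, and the others run from −8.47 to 13.93.

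Depth was recovered by trying 5000000 to 25000000 reads in steps of 2000 with exon lengths of GENCODE mouse release 21, in which 1487 of the 1489 identifiers were found. At the depths chosen, 97.37% to 99.5% of values up to 50 reads came out whole to within 0.1 of a read. No depth outside a narrow band around the chosen one gave more than 51.63%. Ratios of reads carry exact (Clopper-Pearson) 95% counting intervals, and a group with 0 reads was set to a floor of 3 reads over the group.

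The main test was limma 3.58.1 in R 4.3.3 on log2(FPKM + 1) with a trend, 3 groups in 1 fit of 1053 genes and Benjamini-Hochberg adjustment over them, called under 0.05. It leaves 2 residual degrees of freedom. The rest was done in Python 3.11.15 (pandas 2.3.3, numpy 2.4.6, scipy 1.17.1), and figures with matplotlib 3.10.9. The fit was tested on simulated data. Alternatives were the filter dropped or raised to an FPKM of 10, a pseudocount of 0.1, median-of-ratios scaling, a replicate block, the groups compared only, no trend, limma-voom on genes with at least 10 recovered reads, and leaving out each replicate.

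The members and lists were chosen with earlier results of these data known. Named with full statistics are up to 5 tested members with the largest change per substrate group, under the filter the 3 with most reads per group, and the 2 largest changes per list and direction. Slc9a9 was named after its values were seen.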

Additional observations from a re-analysis of the deposited data

How the results depend on the processing

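The count of solute carrier genes called with LPS, 20 of the 21 tested, was 33 without a filter, 9 with a filter at an FPKM of 10 and 33 by limma-voom, which follows from the number of members tested (34, 9 and 34), and leaving out 1 replicate gave 19 to 20. Median-of-ratios scaling gave 15, with Slc16a3 at −0.28, Slc30a4 at −0.40, Slc3a2 at −0.31, Slc48a1 at −0.74, Slc6a9 at −0.11 and Slc7a7 at −0.54 turned negative. Slc30a4, not called in any setting, ran from −0.28 to 0.44 when 1 replicate was left out, with −0.18 without LPS model replicate 2. For compound 13 against the LPS model, 0 members became 1 with the groups compared only, 2 by limma-voom and 0 to 1 with 1 replicate left out, and Slc20a1 turned to 0.01 under median-of-ratios scaling. For compound 13 against the control, 20 members became 32 without a filter, 9 at an FPKM of 10 and 13 under median-of-ratios scaling. Of the list genes, 25 called with LPS became 14 at an FPKM of 10. The 1 called with compound 13 became 0 with a pseudocount of 0.1, without a filter, at an FPKM of 10, under median-of-ratios scaling or without a trend, 6 with the groups compared only, 10 by limma-voom, and 0 to 6 with 1 replicate left out (0 without either LPS model replicate, 6 without either control replicate). Beyond the counts explained by the number of members tested, the cause of these shifts was not tested. Libraries share only a replicate number, whose deviations correlated at −0.0219 over 1053 genes. With the replicate block, 20 members were called with LPS, 0 with compound 13 against the LPS model and 0 list genes with compound 13. Depth limits the genes under the filter, where 1 read is a large part of a value, and 2 residual degrees of freedom and a single library with compound 13 limit every test.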
